A study of Mus musculus with 3 samples.

Results

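The CTCFL peaks that lie in repeated sequence are described here, taken from the peak list of mouse ES cells in which a tagged CTCFL was induced. Each peak was read as all of its 36-base windows in the mm9 genome, and the share of windows found exactly once in the genome, with both strands counted, was its unique share. A peak was a member when fewer than 90% of its windows were unique, which held for 463 of 7436 peaks. The other 6973 peaks served for comparison, and all windows were unique in 6099 of them. The value of 90% was met closely on either side: the members nearest to it stood at 89.97% (near Pcdh9) and 89.97% (near a U7 gene), and the closest peaks not taken stood at 90% (Sec24a) and 90.04% (Rnf144b). The unique share chose the members, so it is given below as a description with no test.

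The cells were a ROSA26-rtTA ES cell line carrying a doxycycline-responsive TRE-mCTCFL-V5-GFP transgene from transfection and drug selection, and the number of clones behind the libraries is not given in the sources used here. The induced group had received doxycycline for 3 days and was sorted for GFP. The non-induced group carried the same transgene and received no doxycycline, and the study's text describes no sorting of it. Chromatin of both was precipitated with V5 antibody, with 1 library per group, and the non-induced cells were the control. A CTCF library belongs to the same series and was not used here. The peaks of the induced cells are given as start and end alone, so the depth behind a peak is unknown, there is no spread between replicates, and ES cell markers cannot be checked. All intervals below are 95% intervals that cover counting error over peaks only, and peaks that share sequence or lie side by side are not independent.

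CTCFL, also known as BORIS, is the testis paralog of CTCF, and the zinc finger regions of both proteins recognize closely similar DNA. Repeated sequence in the mouse genome comes in several forms. Satellite DNA lies in long tandem arrays near the centromeres, transposon copies are scattered over all chromosomes, gene families arise from local duplication, and processed pseudogenes are copies of spliced transcripts inserted elsewhere. A read as short as a window can be placed at a single position only where its sequence is unique.

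The sequences that follow show the kinds of repeat found in the members, on mm9 and written 5′ to 3′. The first is from the widest tandem array at the start of a chromosome, chr9:3026437-3026670 on the plus strand, nearest to the predicted gene Gm16869. It is 1 unit of 234 bases, the length known for the mouse major satellite, and the capitals mark its most copied 36-base window, which was found at 95 places.
Satellite unit: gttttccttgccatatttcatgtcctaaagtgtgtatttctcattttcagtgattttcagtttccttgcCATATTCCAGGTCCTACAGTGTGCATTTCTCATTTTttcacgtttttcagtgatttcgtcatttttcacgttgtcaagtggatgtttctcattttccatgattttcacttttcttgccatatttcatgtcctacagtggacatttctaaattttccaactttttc
Windows of this unit were found at a median of 16 places, and 17.6% of them were unique. Its GC content was 34.6%, and 62.8% of its bases equalled those of the next unit.

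Members on different chromosomes shared long identical runs. The capitals mark the longest run shared by a stretch near E030030I06Rik (chr10:21862189-21862308, plus strand) and a stretch near Gm16630 (chr6:48071234-48071353, minus strand), which was 84 bases, and the run of 87 bases shared by a stretch near Gm7103 (chr3:8246299-8246418, plus strand) and a stretch near Ndufb3 (chr1:58670729-58670848, plus strand).
E030030I06Rik: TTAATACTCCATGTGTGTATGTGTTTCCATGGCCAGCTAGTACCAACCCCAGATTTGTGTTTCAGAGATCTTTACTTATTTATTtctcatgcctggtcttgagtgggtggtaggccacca
Gm16630: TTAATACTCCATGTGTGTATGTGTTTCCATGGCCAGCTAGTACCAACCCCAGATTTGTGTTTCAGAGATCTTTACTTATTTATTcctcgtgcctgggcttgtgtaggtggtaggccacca
Gm7103: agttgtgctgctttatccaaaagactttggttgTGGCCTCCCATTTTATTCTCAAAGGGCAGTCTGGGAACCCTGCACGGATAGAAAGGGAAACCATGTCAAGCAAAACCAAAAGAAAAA
Ndufb3: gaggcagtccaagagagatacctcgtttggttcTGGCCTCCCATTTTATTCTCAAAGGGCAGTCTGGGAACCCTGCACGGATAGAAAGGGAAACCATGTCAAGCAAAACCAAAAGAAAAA

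A short unit repeated many times makes up the stretch near Tcte2 (chr17:13744910-13745029, plus strand), in which no window was unique. The capitals mark its most copied window, found at 33 places, and related sequence was shared by members near Smo and Gm9880.
Tcte2: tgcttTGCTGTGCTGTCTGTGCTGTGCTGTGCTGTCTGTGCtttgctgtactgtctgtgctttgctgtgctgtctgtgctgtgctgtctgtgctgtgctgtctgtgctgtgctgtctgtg

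Neighbouring gene copies gave the next form. Hbq1b and Hbq1a are theta-globin genes of the alpha-globin cluster, and each had a member at its TSS. The stretches just before their exons, chr11:32186892-32186962 and chr11:32199997-32200067 (plus strand), were equal in 71 of 71 bases, and the capitals mark a match to the CTCF core consensus, which lies on the minus strand.
Hbq1b: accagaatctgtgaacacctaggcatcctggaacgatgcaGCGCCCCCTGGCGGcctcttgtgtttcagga
Hbq1a: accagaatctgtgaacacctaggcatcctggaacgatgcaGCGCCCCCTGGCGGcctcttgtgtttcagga

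The last sequence is from an intron of Ctcfl itself and was chosen after its values were seen, because it held more exact consensus matches than any other peak in the list. It lies at chr2:172922882-172923073 and is written on the minus strand, which is the strand of the gene. The capitals mark 6 exact matches.
Ctcfl: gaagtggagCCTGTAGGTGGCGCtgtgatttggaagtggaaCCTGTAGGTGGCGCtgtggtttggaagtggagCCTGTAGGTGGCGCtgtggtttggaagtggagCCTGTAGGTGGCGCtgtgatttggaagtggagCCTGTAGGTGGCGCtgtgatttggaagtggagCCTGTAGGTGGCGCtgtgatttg

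The members were widely spread in their unique share. Its median was 77.6%, with quartiles of 58.9% and 85.5%. It was under 75% in 207 members and under 50% in 90 members, and 10 members had no unique window. The repeated windows were sorted by the nearest of their copies, and each member was put in the class that held the largest number of them. The copies lay mainly on other chromosomes in 150 members (32.4%, 28.3 to 36.8%) and mainly within 1 Mb in 145 (31.3%, 27.3 to 35.7%). They lay elsewhere on the same chromosome in 63, inside the peak itself in 33, and in unplaced sequence alone in 21, and in 51 members the largest class was windows at over 1000 places. These classes differed in how much of a peak was repeated: the median unique share was 62.9% with copies within 1 Mb, 81.7% with copies on other chromosomes, 86.5% with over 1000 copies, and 21.9% with copies in unplaced sequence alone. For each member the median number of places of its repeated windows was taken, with unique windows left out. Over members this had a median of 3 for copies within 1 Mb (quartiles 2 and 6) and 3 for copies on other chromosomes (quartiles 2 and 7.75). It was 27 for copies elsewhere on the chromosome and 1726 in the class at over 1000 places.

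**Figure D1:**
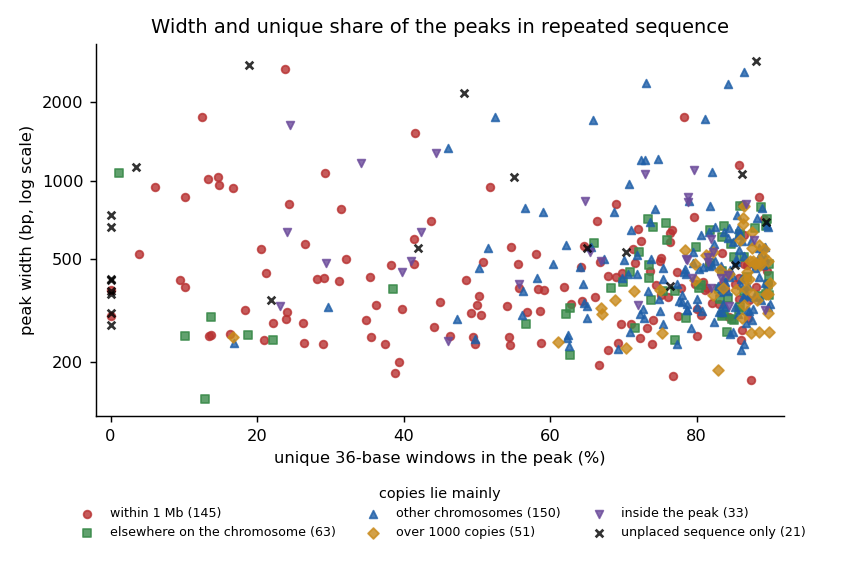
Width of each of the 463 members (vertical, bp, log scale) against its share of unique 36-base windows (horizontal, %), with marker shapes for where most copies of its repeated windows lie. Members with over 1000 copies gather at the right (median unique share 86.5%), and the members without a unique window stand at the left edge.

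The sequence around the members was repeated as well. Within 2 kb of the center and outside the peak, a median of 79.5% of windows were unique (quartiles 47.1% and 93.7%), against 96.8% (92.4% and 99.2%) for the other peaks. The flanks of members with copies within 1 Mb were unique in a median of 44.4% of windows, so that these peaks lay in larger repeated tracts. Flanks of members with over 1000 copies, at 94.3%, were close to those of the other peaks. In members with copies within 1 Mb the center itself was less repeated than its surroundings. In 100-bp bins, unique windows made up a mean of 58.6% and 61.6% on either side of the center, and 46.5% and 41.02% in the bins 250 bp away.

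**Figure D2:**
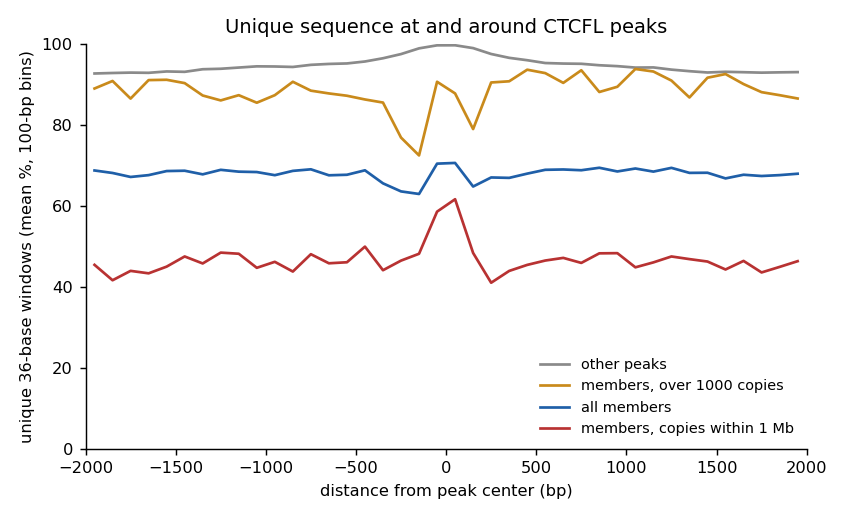
Mean share of unique 36-base windows (vertical, %) in 100-bp bins from the peak center (horizontal, bp), for the other peaks, all members, members whose copies lie mainly within 1 Mb and members with over 1000 copies. Members with over 1000 copies dip to 72.5% and 79.0% at 150 bp from the center, whereas members with copies within 1 Mb reach 61.6% at the center and lie between 41.02% and 49.9% from 250 bp outward.

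Compared with the other peaks, the members lay less often at promoters and more often between genes. The center was from 2 kb upstream to 1 kb downstream of a protein-coding TSS in 93 members (20.1%, 16.7 to 23.98%) and in 2251 other peaks (32.3%, 31.2 to 33.4%). The difference, members minus others, was -12.2 percentage points (Newcombe interval -15.8 to -8.16). Intergenic centers made up 51.6% of members (239 peaks) and 32.9% of the others, a difference of 18.8 points (14.1 to 23.4). Introns held 22.5% and 26.4%, and the interval of that difference included 0 (-7.70 to 0.164). Exons held 8 members (1.73%) and 3.69% of the others, and the ends of transcripts 4.10% and 4.73%. The median distance to a TSS was 14327 bp in members and 7736 bp in the others.

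The CTCF core consensus, CCNNNAGGNGGCGC with 10 fixed positions of 14, was also rarer in the members. It was searched on both strands with 1 mismatch allowed. The study reports a CTCFL motif almost identical to that of CTCF, with C and A less prevalent at some positions. No CTCFL motif was scored here, so a peak without a match is not shown to lack one. Of the members 131 held the CTCF consensus (28.3%, 24.4 to 32.6%), as did 44.9% of the other peaks (43.8 to 46.1%), a difference of -16.7 points (-20.7 to -12.2). An exact match was found in 28 members (6.05%) and in 13.2% of the others, a difference of -7.17 points (-9.18 to -4.51). Without the peaks in the first 100 kb of a chromosome, which held no match in members, the shares at up to 1 mismatch were 29.8% and 45.0%, a difference of -15.1 points (-19.4 to -10.5). The share was lowest where the sequence was most repeated, at 15.2% of members under 25% unique and 33.2% of those from 75 to 90%. Width was not the same in both sets, at medians of 422 bp (quartiles 325 and 554.5 bp) and 455 bp (362 and 572 bp), so the shares were compared within 3 ranges of width cut at the quartiles of the other peaks. In each range the members held a match less often, and the difference was -11.5 points among the narrow peaks, -12.2 points in the middle range and -26.0 points among the wide peaks, with none of these intervals including 0. Within promoters 47.3% of members and 53.8% of other peaks had a match, and there the interval of the difference included 0 (-16.6 to 3.73). Outside promoters the shares were 23.5% and 40.7%, a difference of -17.2 points (-21.5 to -12.4). GC content was lower in members, at a median of 48.5% against 52.9%, and the CpG count relative to that expected from base composition was 0.259 (quartiles 0.137 and 0.498) against 0.350 (0.195 and 0.632).

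**Figure D3:**
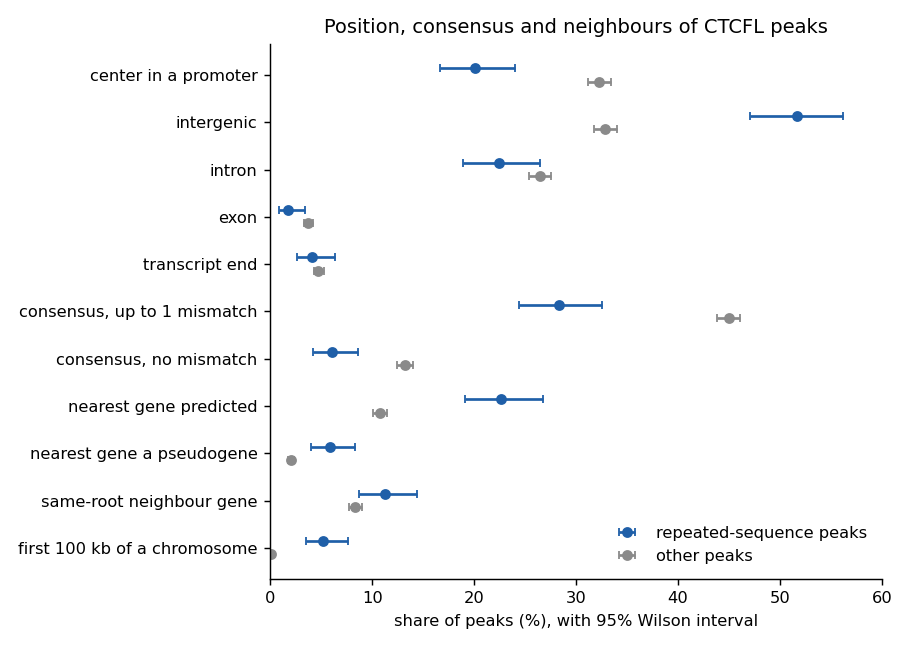
Share of peaks with each feature (horizontal, %) for the 463 members and the 6973 other peaks, with 95% Wilson intervals. Members lie lower than the other peaks for promoters and for the consensus, and higher for intergenic sequence, predicted genes, pseudogenes and chromosome starts.

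Within 100 kb of the first assembled base, next to the centromere, most peaks were members. Mouse chromosomes carry the centromere at an end, and the assembly of every chromosome except Y begins after a gap that stands for it. In that distance lay 24 members (5.18%, 3.51 to 7.60%) on 7 chromosomes and 4 of the other peaks (0.0574%), so that 85.7% of the peaks found there were members. The members there shared much of their sequence, and with sequence-sharing peaks counted once the share of members within 100 kb was 2.08%, a difference of 2.03 points (0.998 to 3.999). It was 16.7% among members under 50% unique, 9.18% among those under 75%, and 2.75% with windows of 25 bases. Within 1 Mb of the first base lay 8.64% of members and 0.817% of the other peaks, so that most peaks in that wider distance were not members. Chromosome 9 held 14 of them in the span from 2999905 to 3038515, with no other peak between them. These 14 peaks were 251 to 2702 bp wide, their unique share ran from 10.1% to 41.4%, and none of them had a consensus match at up to 1 mismatch. In 6 of them the bases repeated at a regular distance over at least 2 units with at least 70% of bases equal, which is called a tandem array here. The best distance was 234 bases in 4 of these arrays, 467 in another and 644 in the last. The peak around the printed unit was 2702 bp wide, and 81.0% of its bases equalled the base 234 positions farther on. In the array near Gm10106 this value was 94%.

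In all, 19 members (4.10%) and 3 other peaks (0.0430%) were tandem arrays. Near-equal units leave few unique windows, so these counts are not independent of the choice of members and are given as a description. Away from the chromosome starts the 13 others had distances from 5 to 156 bases. It was 88 bases near Tmem125 (95.4% of bases equal), 99 bases near D5Ertd579e (95.7%), 10 bases near Pou4f1 (80.1%) and 6 bases near a U6 gene on chromosome 3 (87.8%). The 3 arrays among the other peaks, near Dock2, Gm14501 and Gm15064, had unique shares of 99.8%, 98.9% and 97.9%, since their units differed enough for nearly every window to be unique.

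Peaks that shared at least 10 windows were joined into sequence groups, and 117 members (25.3%) shared sequence with another peak of the list. The largest group held 25 members on 6 chromosomes, 15 of them within 100 kb of a chromosome start, and included those on chromosome 9. Its members had a median width of 863 bp and a median GC content of 35.4%, and none had a consensus match. The next group held 11 members on 10 chromosomes, among them the pair printed above near E030030I06Rik and Gm16630, and again none had a match. Then came 3 groups of 4, of which the stretches near Ndufb3 and Gm7103 and the stretch near Tcte2 are examples. There were 35 groups with more than 1 member.

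The widest peaks of the list were often members: 7 of the 10 widest and 16 of the 30 widest. The widest of all was an intergenic peak near Gm11408 (chr4:79648300-79651192, 2893 bp, 88.2% unique). An intron of Sp110, a gene of the Sp100 family of nuclear body proteins, held the next (chr1:87487428-87490210, 2783 bp, 18.9%), followed by the satellite peak on chromosome 9. Others among the 10 widest members lay in an intron of Myo3a, a myosin gene (chr2:22443978-22446148, 2171 bp, 48.3%), near the pseudogene Pisd-ps2 (chr17:3081440-3083204, 1765 bp, 52.5%) and near Pisd-ps1 (chr11:3000780-3002532, 1753 bp, 78.2%). None of these 10 had a consensus match at up to 1 mismatch, although a wide peak offers more positions for one.

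In the intron of Ctcfl the consensus recurred in a short repeated unit. The peak spanned chr2:172922674-172923268 (595 bp) within the gene, which lies at 172919110 to 172945026 on the minus strand, and 82.0% of its windows were unique. It held 7 matches at up to 1 mismatch, of which 6 were exact, on the minus strand and each 32 bases from the next. No other peak of the 7436 held more than 2 exact matches, and 20 peaks held more than 1. Among 5 complete units of 32 bases between the matches, any pair was equal in 30 to 32 bases, and the copies of the peak's repeated windows lay mainly within the peak itself. The printed stretch overlapped no annotated exon.

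**Figure D4:**
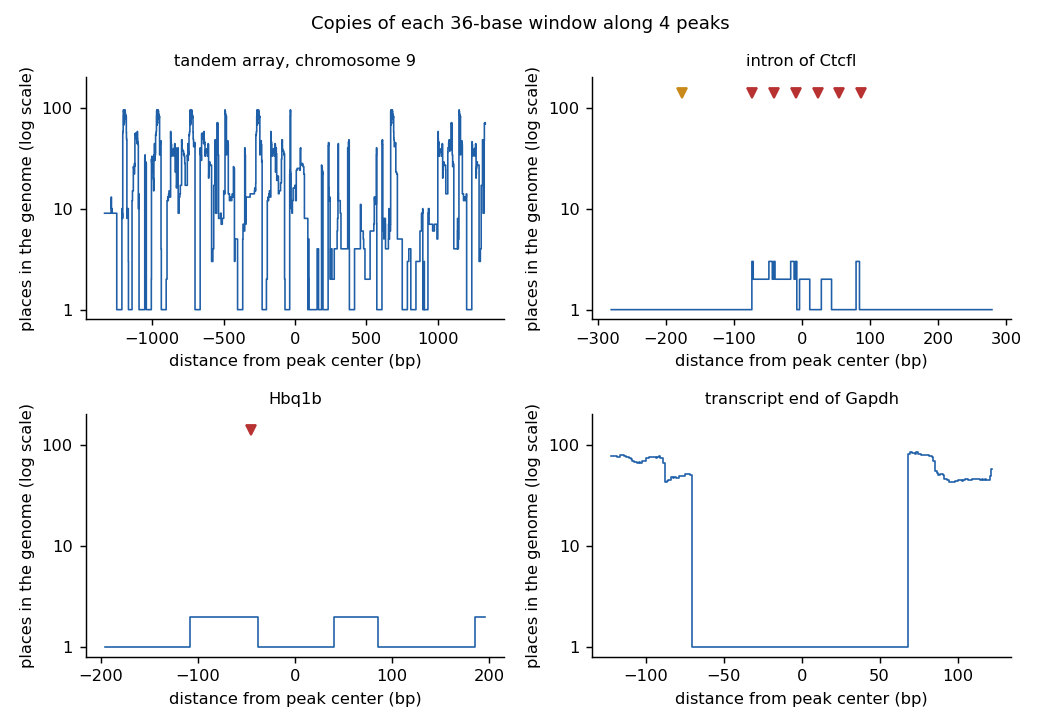
Number of places in the genome (vertical, log scale) at which each 36-base window occurs along 4 members (horizontal, bp from the peak center); red triangles mark exact consensus matches and the gold triangle a match with 1 mismatch. Windows of the array on chromosome 9 reach 95 places, those in Ctcfl and Hbq1b stay at 3 or fewer, and the Gapdh peak has a unique middle between repeated sides.

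Many members lay in runs, some of them along families of duplicated genes and others near unrelated genes. Members were joined when no more than 500 kb separated them, which gave 28 runs of at least 3 members with 130 members in all. In 18 of these runs, with 97 members, no other peak lay in the same span. The spans of the 28 runs ran from 5.29 to 1010.9 kb, and a short span leaves little room for another peak. No expected share was computed and the runs were built from members alone, so this count is a description. The run on chromosome 8 from 19730860 to 20020784 held 14 members, with a median unique share of 23.7%, near 4930467E23Rik, AC152164.1, Gm15319 and 2610005L07Rik, and 1 had a consensus match. On chromosome 1, from 85071740 to 85339082, lay 9 members near C130026I21Rik, A530032D15Rik, Gm16026 and Gm16025, with a median unique share of 6.04%. The run from 146135641 to 147146540 on chromosome 4 held 8 members, near the zinc finger gene Zfp600 and the predicted gene Gm17317. The Speer genes, a testis-expressed family of glutamate-rich proteins, lay in a run of 7 members on chromosome 5 from 14933571 to 15179584. All 7 had their copies mainly within 1 Mb and none had a consensus match.

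The runs given next held 3 members each. Around Dux, a multicopy homeobox gene active in the early embryo, 3 members lay within 10.5 kb on chromosome 10 (57689216 to 57699764), and each was in a promoter: that of Dux at -878 bp from the TSS with 49.7% unique windows, that of Gm10807 at 713 bp with 35.5%, and that of Gm4981 at -164 bp with 81.4%. Between 8019886 and 8122517 on chromosome 17, 3 members near Fndc1, D030054H15Rik and Tagap had no unique window. Ssxb6, a gene of a germ cell family on the X chromosome, was the first gene of a run of 3 with unique shares from 66.8% to 77.5%. The 2 peaks of the list on the Y chromosome were both members, near Gm3395, with 69.3% and 37.5% unique windows.

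**Figure D5:**
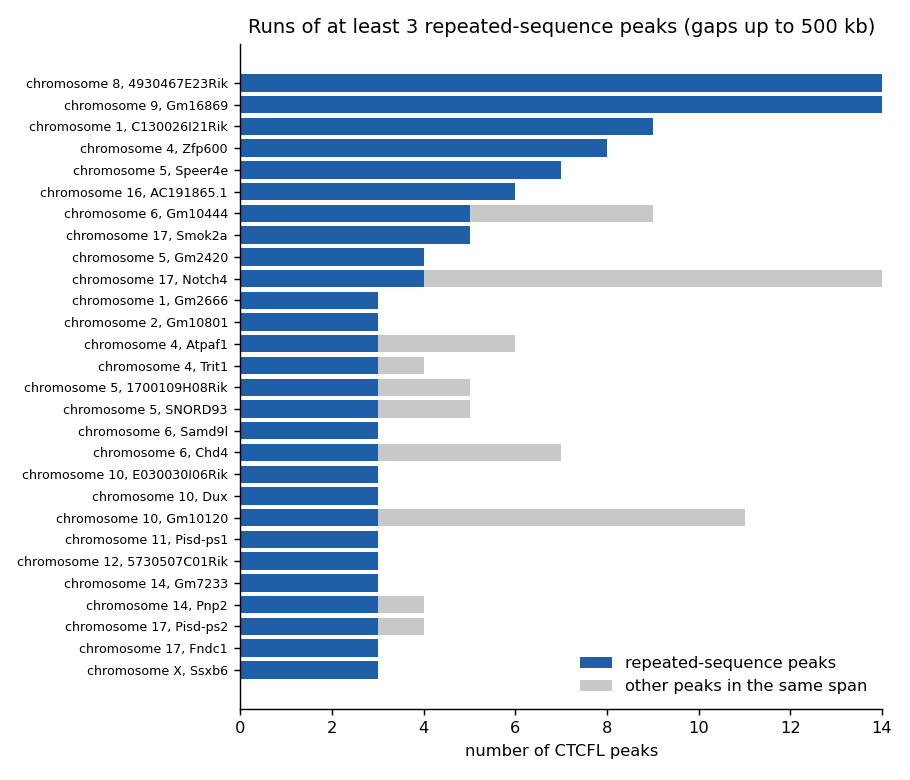
Number of CTCFL peaks (horizontal) in each of the 28 runs of at least 3 members, named by chromosome and the gene nearest to its first member, with members in blue and other peaks within the same span in grey. The runs on chromosomes 8 and 9 hold 14 members each and no other peak, whereas the run starting near Notch4 on chromosome 17 holds 4 members and 10 other peaks.

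Of the 93 members in promoters, 35 lay at predicted genes alone, 10 of them at the satellite of chromosome 9. The other 58 lay at genes with a name of their own, and 31 of these (53.4%) had a consensus match. Of the 93, 39 had their copies mainly within 1 Mb and 24 mainly on other chromosomes. Named genes with copies mainly within 1 Mb included Mterf, a mitochondrial transcription termination factor (39.4% unique), and Cntfr, a cytokine receptor (50%). Others were Tprkb with Cml1 (55.7%), Mfsd8, a lysosomal membrane protein (58.3%), the cytochrome P450 gene Cyp2d9 (66.1%), and Hbq1b and Hbq1a (67.9% and 71.6%). For these genes the repeated windows were found at a median of 2 to 4 places, with the nearest copies mainly within 1 Mb.

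A copy did not always carry a peak of the list. A read as short as a window cannot be assigned to a copy where the copies are identical. The list therefore cannot show whether CTCFL bound a copy without a peak, or each of the copies that have a peak. The counts below describe the listed peaks only. At least 10 windows of a member recurred at another place in 431 members. Where a member had 1 to 10 such places, which held for 235 members, there were 766 of them on assembled chromosomes, and 73 lay in another peak of the list. Matches to the consensus were within a window that occurred more than once in 37 of the 131 members with a match. In 29 members the window of a match occurred at 2 places, and in 12 of these the other place was in another listed peak. They formed 6 pairs. Besides Hbq1a with Hbq1b these were the pair near Slc19a3, a thiamine transporter (chr1:82956487-82956908 and chr1:82996805-82997210), Mfsd8 with 3110057O12Rik, Mterf with Gm9897, Tprkb with Nat8b, and H2-T23, a nonclassical MHC gene, with C920025E04Rik. The match of Mterf with Gm9897 and that of Tprkb with Nat8b lay on opposite strands in the 2 copies, and in the other 4 pairs on the same strand. The match of the Tprkb and Nat8b peaks was exact, whereas those near Slc19a3, Mfsd8, Mterf and H2-T23 had 1 mismatch.

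Members with repeated windows at exons made up a further set, and some of them had pseudogene copies. In 63 members (13.6%) at least 50% of the repeated windows overlapped annotated exons by any number of bases, and 20 of these had a copy in an annotated pseudogene. The 63 also included peaks at the start of chromosome 9 near Gm16869, Gm10106 and Gm10715, and peaks at the histone genes Hist3h2a and Hist1h4f. H3f3a and H3f3b encode the histone variant H3.3. The H3f3a peak lay in an exon (chr1:182741828-182742131, 56.1% unique), with a median of 11 places per repeated window, and 12 of its 26 copy places were in annotated pseudogenes. The H3f3b peak (chr11:115884945-115885367, 69.8% unique) was in the promoter, its repeated windows were found at a median of 2 places, and 1 of its 2 copy places was in a pseudogene. The ribosomal protein gene Rps15 (74.8% unique) had 2 of 3 copy places in pseudogenes. Gapdh, a glycolytic enzyme gene chosen after its values were seen, had a member at its transcript end (chr6:125112034-125112313, 56.7% unique). Of its 123 copy places, 37 were in annotated pseudogenes, and in the plot of windows along the peak its center was unique while windows on its sides recurred at up to 85 places.

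In the 51 members whose largest class was windows at over 1000 places, the most copied window occurred at a median of 23146 places, from 1479 to 695979, and in 21 of them this window was a simple repeat with a unit of 1 to 6 bases, 13 with a unit of 2 bases. Members of other classes held such windows too, among them a peak near Gm10801 with a window at 695979 places and the peak near Vmn1r-ps2 with a window at 628912. Repeats with a unit of 2 bases lay at the promoters of Trib3 (88.7% unique) and Rnf150 (87.2%), and the promoter of the ribosomal protein gene Rplp0 (86.3%) held a repeat that was not of this simple kind. The repeat was a small piece of most of these peaks, since their quartiles of unique share were 81.8% and 88.1%. The lowest value, 16.7%, belonged to a peak near Pramef17, a gene of the Prame family, and the next was 61.1%, near Frmd4b.

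Of the 10 members without a unique window, 8 had all of their windows together at a place in unplaced sequence, that is, in contigs not assigned to a position. They lay in introns of Atg7, an autophagy gene, Disc1 and Tagap, at the promoter of Fndc1, at the transcript end of Tsnax, and near Gm16026, Gm16025 and D030054H15Rik. Each window of these peaks was found exactly 2 times, except near Gm16026 and Gm16025, where a window had a median of 8 and 4 places. The remaining members without a unique window were near 4930467E23Rik and Gm15319, in the run on chromosome 8. When assembled chromosomes alone were searched, 450 peaks were members. The study kept reads that mapped unambiguously in its comparative analysis, and the genome index behind this list is not given in the sources used here.

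The gene families next to the members were counted by the nearest gene within 50 kb. Named families were read from the start of the symbol, so family copies under Gm or Rik names could not count in them. Predicted genes (Gm and Rik names) were nearest to 105 members (22.7%, 19.1 to 26.7%) and to 10.7% of the other peaks, a difference of 11.9 points (8.28 to 16.03). Members near such names lay side by side in runs, as on chromosomes 1 and 9. Families were not counted with sequence-sharing peaks taken as 1. Pseudogenes stood at 5.83% and 2.02% (3.81 points, 1.98 to 6.35) and small RNA genes at 4.97% and 2.74% (2.23 points, 0.543 to 4.63). Immune clusters, with Ly6c2, Ly6g, H2-T23, Klrb1c, Triml1, Igkv2-137 and Trav3-1, were nearest to 7 members (1.51%) and 38 other peaks (0.545%), a difference of 0.967 points (0.163 to 2.55). Triml1 entered by its Trim symbol start alone, and a member near Ly6c2 belonged to the sequence group of 11 members on 10 chromosomes. Vomeronasal receptors (Vmn1r-ps2, Vmn1r-ps60 and Vmn2r87) were nearest to 3 members and 2 other peaks, a difference of 0.619 points (0.185 to 1.86). The member near Vmn1r-ps2 belonged to the sequence group of 25 members on 6 chromosomes, which included those at the start of chromosome 9. Histones (Hist3h2a and Hist1h4f) were nearest to 2 members and 3 other peaks, with an interval of 0.0646 to 1.52 points. In both members all repeated windows overlapped exons, so this count is not independent of the choice of members and is a description. For zinc finger genes, a large duplicated family, there were 7 members (1.51%) and 107 other peaks (1.53%), and the interval of the difference ran from -0.862 to 1.57 points. Olfactory receptors were nearest to 3 members and 14 other peaks, protocadherins to 2 and 11, metabolism clusters, with Cyp2d9 and Cyp2c44, to 2 and 25, and ribosomal protein genes to 5 and 59, and each of these intervals included 0. Hox genes were nearest to 0 members and 1 other peak, and the keratin and protease clusters to 0 members and 13 other peaks, and these intervals included 0 as well. A gene with a neighbour of the same name root within 1 Mb was nearest to 52 members (11.2%) and to 8.32% of the other peaks. That difference of 2.91 points had an interval of 0.264 to 6.17, and it included 0 under other settings of the unique share. Gm, Rik and accession-like names were given no root, so peaks nearest to such genes could not count. Since predicted genes were nearest to 22.7% of members and 10.7% of the other peaks, the measure missed duplicated genes unequally in the 2 sets.

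A few more members are given for the gene beside them, chosen after their values were seen. Tex19.1, a gene of germ cells and pluripotent cells that acts on transposons, had a member at its promoter (chr11:121007147-121007494, -137 bp from the TSS, 87.2% unique). Dppa3, also called Stella, which protects DNA methylation in the zygote, was the gene nearest to an intergenic member (chr6:122594316-122594539, 69.3% unique). SNORD116, a small nucleolar RNA gene of an imprinted cluster, was nearest to another. Each of the Tex19.1 and Dppa3 peaks held 2 matches at up to 1 mismatch and none without. The SNORD116 peak, with 35.4% unique windows, held no match.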

How the data were processed

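V5 ChIP libraries of induced and non-induced ES cells were sequenced by the authors, and 36-bp reads were mapped with ELAND. For the comparative analysis the authors' methods state BOWTIE alignment to mm9, removal of ambiguous and duplicate reads, and MACS peak finding under an fdr limit, with no control named in that step. Non-induced cells were the control of the ChIP. Which of these steps made the list is not given in the sources used here. The list is longer than the set of CTCFL sites that the study counts, and how they relate is not given either. The deposited list holds peak positions in bp on mm9, without score, count or coverage, so the depth behind each peak is unknown.

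All windows of 36 bases, without those holding N, were looked up on both strands in the 211 sequences of NCBIM37 (mm9), unplaced sequence included. Genes came from GENCODE vM1. Python 3.11.15, numpy 2.4.6, scipy 1.17.1, numba 0.67.0 and matplotlib 3.10.9 were used, and the search was tested on simulated sequence. Shares have 95% Wilson intervals and differences 95% Newcombe intervals, both for counting error only. No p-value is given, since peaks come from 1 library.

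The members and gene lists were chosen with earlier results of these data known. Genes were named by fixed rules: the 30 promoters with the lowest unique share, roots with at least 2 members within 10 kb, the 10 widest members, and 2 genes per family. Genes named outside these rules, such as Ctcfl, Gapdh, Atg7, Tmem125 and Trib3, were chosen after their values were seen. Sequences were shown from the most repeated stretch of a member, beside a second place with the longest shared run, in place of its center as first planned. Alternatives were other limits of the unique share, windows of 25 and 50 bases, other distances, sequence-sharing peaks counted once, and assembled chromosomes alone.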

Additional observations from a re-analysis of the deposited data

How the results depend on the processing

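Across 85 alternatives for 10 results, 64 left the result the same. For a difference in share this meant the same direction and the same answer to whether its interval included 0. For a median, or a share given without comparison, it meant a value within the main interval, and for the number of members a value within a set fold range. None of the differences in share reversed, and the other results were not judged by direction. The number of members followed the limit, at 90 under 50% unique windows and 207 under 75%, and the window, at 982 with 25 bases and 264 with 50 bases. A copy within 1 Mb, counted where at least 10 windows had one outside the peak, was found for 202 members (43.6%) in the main setting. This is a wider measure than the class holding most repeated windows. Its share was 77.8% under 50%, 62.3% under 75%, 24.03% with 25 bases and 57.6% with 50 bases. It was 27.2% for copies within 100 kb and 53.996% within 5 Mb. The share with sequence in another peak was 36.7%, 37.7%, 14.3% and 33.3% under the same 4 settings and 9.90% when sequence-sharing peaks were counted once. For a nearest gene with a same-root neighbour the interval of the difference included 0 under 50% (share 10%, interval -3.18 to 9.47 points), under 75% (11.6%, -0.553 to 8.30) and with 50 bases (11.4%, -0.383 to 7.41). The median width was 399.5 bp under 50%, and the median CpG ratio was 0.208 under 50% and 0.218 with 25 bases. The cause was not tested. Searching assembled chromosomes alone, chosen after seeing the data, gave 450 members. A stricter peak score was not run because the list holds none, and the share near the first base has no value once those peaks are left out. No paired analysis was possible because the induced and the non-induced cells gave a lone library each and the list carries no replicate numbers.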
